A study of Mus musculus with 12 samples.

Results

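The comparison described here is that of wild-type (WT) E14 mouse embryonic stem cells held in a pause by an mTOR inhibitor with WT E14 cells growing in serum. All libraries carrying these 2 labels were taken, which gave 6 of the 12 libraries of the series, 3 named WT FBS and 3 named WT paused. WT FBS cells grew in medium with fetal bovine serum (FBS) and leukaemia inhibitory factor (LIF). WT paused cells received INK128, an inhibitor of the mTOR kinase, at 200 nM for 2 weeks. The other 6 libraries come from E14 cells with a knockout (KO) of Mettl3, a methyltransferase of messenger RNA, under the same 2 conditions. They serve to ask whether a WT response differed from that of KO cells. The gene-wise fits also estimate the spread from all 12 libraries, so the KO libraries bear on the WT calls. All 4 groups derive from 1 cell line in culture, and the labels do not say whether libraries of a group came from separate cultures. P-values therefore measure the spread between libraries of a group, which may be technical. Of the 24421 gene rows deposited, 15281 had enough counts to be tested.

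mTOR is a kinase that senses amino acids, growth factors and energy. When active it promotes protein synthesis, ribosome production and the synthesis of lipids and nucleotides, and it holds back autophagy and lysosome production. Partial inhibition of mTOR lets mouse blastocysts and embryonic stem cells rest in a reversible state that resembles embryonic diapause, the natural delay of implantation, in which growth slows while pluripotency is kept.

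Each gene was followed on 2 scales. CPM are counts per 1000000 gene counts after TMM scaling, a normalization that centres the typical gene at no change, and a log2 fold change (paused minus FBS, ± SE) on this relative scale says how a gene moved against the others. The per-cell scale divides by the counts of ERCC RNAs, synthetic transcripts added in equal amount to RNA from equal numbers of cells. A gene was called when its edgeR quasi-likelihood p, adjusted by Benjamini and Hochberg over the 15281 genes, was under 0.05. In the text "rose" and "fell" refer to such calls, on the relative scale unless "per cell" is written.

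Library totals ranged from 12027770 to 39566713 counts in WT FBS and from 10615548 to 22780103 in WT paused cells. Mettl3 was intact by label in all 6 libraries and was not called between them (31.6, 36.5 and 33 CPM in FBS and 35.3, 39.2 and 33.6 CPM in paused cells; log2 0.09 ± 0.09, edgeR adjusted p = 0.456). The embryonic stem cell markers Pou5f1, Sox2, Nanog, Esrrb, Zfp42 and Klf4 stood at over 100 CPM in each of the 6 libraries. One library stood apart. Over 10112 genes with at least 5 CPM, each library was set against the average CPM of its 2 companions in the group. The gap exceeded 2-fold at 976 genes for WT FBS 1, 182 for WT FBS 2 and 137 for WT FBS 3. It did so at 6 or 7 genes for the paused libraries. WT FBS 1 is part of the average used for WT FBS 2 and 3, where 174 and 127 of these genes were lower. WT FBS 1 shares its number and a low total with WT paused 1. The share of the ribosomal row Rn45s was also high in both, at 28.0% and 25.9% of counts, against 14.7% to 17.6% in the other 4 libraries. What sets this library apart was not tested, so list counts are given with and without it.

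Pausing was accompanied by a lower RNA content per cell, as counted in poly(A) libraries. The ratio of gene counts to ERCC counts was 72.35, 73.28 and 74.64 in the 3 FBS libraries and 29.04, 37.4 and 32.63 in the 3 paused libraries, so the groups did not overlap. Its geometric mean in paused cells was 0.447 of that in FBS cells (log2 −1.16 ± 0.11). The exact permutation test (two-sided) gave p = 0.1, below which 3 against 3 libraries cannot go. Without Rn45s and Lars2, rows that can collect ribosomal reads, the ratio of the geometric means was 0.456. ERCC RNA was added to purified RNA, so a lower yield of extraction from paused cells cannot be told apart from less RNA per cell. Libraries were made from poly(A) RNA, so the ratio does not measure total RNA.

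**Figure D1:**
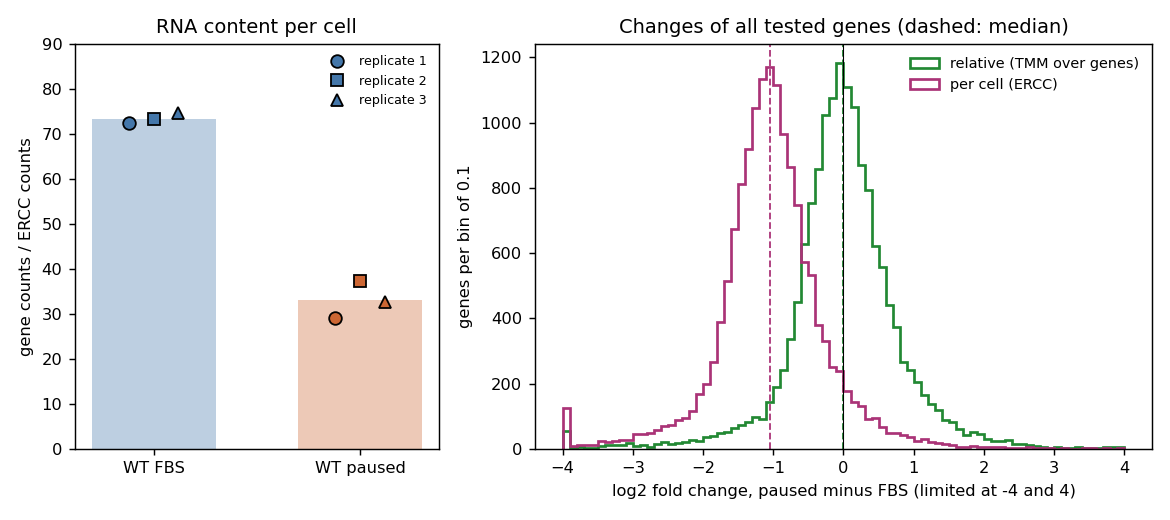
RNA content and gene-wise changes. The left panel plots the ratio of gene counts to ERCC counts in each library (points; bars are group means), 72.35 to 74.64 in WT FBS and 29.04 to 37.4 in WT paused cells. The right panel shows the distribution of log2 fold changes (paused minus FBS) of the 15281 tested genes on the relative scale, centred near 0 with a median of −0.01, and on the per-cell scale, with a median of −1.05.

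Per cell, the loss reached nearly the whole transcriptome. The median gene stood at log2 −1.05, a 2.07-fold lower level, and 93.0% of tested genes had a value below 0. edgeR called 10512 genes lower per cell (68.8% of those tested) and 176 higher (1.15%; 113 without WT FBS 2). On the relative scale 2832 genes rose (18.5%) and 3078 fell (20.1%). Without WT FBS 1 the spread within the FBS group shrank and 4305 rose (28.2%) and 4865 fell (31.8%) of the same 15281 genes. Among them were 2742 of the 2832 and 3067 of the 3078, and no gene was called in the opposite direction. Leaving out any other 1 of the 6 libraries gave 13.0% to 14.9% higher and 14.8% to 15.4% lower. With the 6 WT libraries alone 1387 genes rose and 1514 fell. Counts of gene lists below are to be read beside these values over all genes. All 3078 genes that fell on the relative scale were also called lower per cell. Of the 2832 that rose, 176 were also called higher per cell, 280 were called lower per cell, and 2376 were not called per cell.

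The loss of RNA was spread over many transcripts, with a ribosomal row at the top. The mean number of gene counts per 1000 ERCC counts went from 73200 to 33100, a net loss of 40100. The row Rn45s, the precursor of ribosomal RNA, accounted for 21.8% of it, with 14800 against 6080. In poly(A) libraries this row does not measure how much of the precursor a cell holds. The share of Rn45s in gene counts was 28.0%, 17.6% and 15.4% in FBS and 25.9%, 14.7% and 16.3% in paused cells. The row thus stood first for its size and fell about as much as the total. In all, 17415 rows had a lower mean in paused cells. Next after Lars2 (2.0% of the loss) came rows of 0.55% or less each, the elongation factor Eef1a1 (517 to 296), the chaperones Hsp90aa1 (349 to 130), Hspa8 (318 to 108) and Hsp90ab1 (394 to 184), the nucleolar proteins Ncl (316 to 112) and Npm1 (220 to 68.2), and Ptma (248 to 72.3). The glycolytic enzyme Pkm went from 155 to 37.0. The sum of all gains was only 199 counts per 1000 ERCC counts. The largest were the nuclear noncoding RNA Malat1 (203 to 239), the giant muscle protein gene Ttn (10.1 to 27.0), the basement membrane proteoglycan Hspg2 (36.5 to 49.1) and Adam23 (4.15 to 8.42). Of these 4, Ttn (log2 1.42 ± 0.34, edgeR adjusted p = 0.000116) and Adam23 (log2 1.02 ± 0.32, edgeR adjusted p = 0.0032) were called higher per cell, the second not without WT FBS 1 (log2 0.73), whereas Malat1 (0.24) and Hspg2 (0.43) were not called per cell.

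Within the mTOR pathway itself, 3 of 9 members of the kinase complexes were called, against 38.7% of all genes. Of the 9 subunits of mTOR complexes 1 and 2, 1 rose and 2 fell, and without WT FBS 1, 3 rose and 2 fell, and without any other 1 of the libraries 0 rose and 2 fell. Mlst8, a subunit of both complexes, fell from 18.2, 14.1 and 14.4 CPM to 10.7, 8.78 and 10.3 CPM (log2 −0.64 ± 0.13, edgeR adjusted p = 0.0027), and the complex 1 inhibitor Akt1s1 fell as well (−0.43 ± 0.10). Rptor, the scaffold of complex 1, was not called (log2 0.20). Among 31 upstream inhibitors and amino acid sensors 1 rose (3.23%) and 8 fell (25.8%), against 18.5% and 20.1% of all genes. Without WT FBS 1, 10 rose and 13 fell, in a fit where 28.2% and 31.8% of all genes did. Without any other 1 of the libraries 0 rose and 3 or 4 fell. Ddit4, an inhibitor of mTOR induced by stress, stood at 4.39, 16.3 and 22 CPM in FBS and 3.53, 3.46 and 2.98 CPM in paused cells (log2 −2.17 ± 0.41, edgeR adjusted p = 0.00171). Its 3 paused libraries lay below all FBS libraries, as at 19.2% of all tested genes.

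The outputs of mTOR were divided by direction. The translation repressor Eif4ebp1, which mTOR inactivates by phosphorylation, fell from 76.6, 128 and 173 CPM to 59.7, 62.8 and 66.9 CPM (log2 −1.0 ± 0.21, edgeR adjusted p = 0.00293). Its relative Eif4ebp2 fell less (−0.54 ± 0.10), whereas the third member Eif4ebp3 rose (0.65 ± 0.16). Tfeb, the transcription factor of lysosome genes that mTOR keeps out of the nucleus, stood at 20.2, 17.5 and 16.6 CPM in FBS and 34.5, 42.7 and 32.3 CPM in paused cells (log2 1.02 ± 0.12, edgeR adjusted p = 0.000111). The autophagy kinase Ulk2, also held back by mTOR, rose from 6.43, 3.79 and 4.18 CPM to 14.9, 16.4 and 13.4 CPM (log2 1.69 ± 0.17, edgeR adjusted p = 3.09e-05). In both genes every paused library exceeded every FBS library, as at 20.5% of all tested genes. Per cell neither was called.

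Receptors and adaptors of insulin signalling, which active mTOR restrains through feedback, rose in part. Insr, the insulin receptor, stood at 49.3, 21.5 and 26 CPM in FBS and 79.2, 74.4 and 78.4 CPM in paused cells (log2 1.29 ± 0.22, edgeR adjusted p = 0.000993), and the related receptor Igf1r followed (1.15 ± 0.21). Irs1, the adaptor that connects both receptors with PI3 kinase, rose from 8.09, 1.67 and 1.9 CPM to 18.3, 17 and 15.5 CPM (log2 2.39 ± 0.44, edgeR adjusted p = 0.00149). Its value was 3.20 without WT FBS 1, the FBS library in which Irs1 was highest. Per cell Irs1 was called higher (log2 1.21 ± 0.35, edgeR adjusted p = 0.00159), though not without WT FBS 2 (log2 0.84), and stood at 2.16 without WT FBS 1. Grb10, an adaptor that dampens insulin signalling and is stabilized by mTOR, fell from 478, 465 and 606 CPM to 173, 158 and 265 CPM (log2 −1.37 ± 0.18, edgeR adjusted p = 0.000176). Pdgfra, another growth factor receptor, fell as well (−2.64 ± 0.42). Over the receptors and adaptors 5 of 9 rose and 2 fell, and without WT FBS 1, 6 rose and 2 fell, and without any other 1 of the libraries 3 or 4 rose and 2 fell. Of the kinases and phosphatases below them, Pik3r3, a regulatory subunit of PI3 kinase, showed the largest change (4.97, 9.69 and 11 CPM in FBS and 0.686, 0.56 and 1.31 CPM in paused cells; log2 −3.22 ± 0.34, edgeR adjusted p = 3.63e-05, and −3.84 without WT paused 3). Cited2, a target of the FoxO factors that act when PI3 kinase signalling is low, rose from 44.5, 47.7 and 56.1 CPM to 87.4, 80.1 and 84 CPM (log2 0.76 ± 0.10, edgeR adjusted p = 0.000149).

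The amino acid response was lower in paused cells. In this pathway the transcription factor Atf4 is translated when amino acids run short, and also under active mTOR, and it binds composite elements with the core TGATGNAA to switch on genes of amino acid synthesis, transport and tRNA charging. Matches to this core on either strand within 250 bases before the start of transcription were found in 4 of 18 response genes with a RefSeq promoter (22.2%; GRCm38.p6), in 4 of 23 genes of amino acid synthesis and transport (17.4%) and in 3 of 28 aminoacyl-tRNA synthetase genes (10.7%). Over all tested genes it was 2.43% (277 of 11379). The share was 2.89% among genes that fell and 2.1% among those that rose. Among groups not tied to Atf4 by this background, 5 of 43 lysosome genes (11.6%) and 0 of 32 autophagy genes held a match. None of 17 genes of serine and folate metabolism did. A match is only a stretch of letters, and binding was not measured here. The windows of 5 members that fell are printed 5′ to 3′ along the gene's strand, with the match in capitals, since they show the core and its surroundings in the genes whose values follow.
Nupr1: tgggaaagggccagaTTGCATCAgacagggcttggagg
Chac1: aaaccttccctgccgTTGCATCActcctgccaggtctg
Asns: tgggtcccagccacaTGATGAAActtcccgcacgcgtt
Gars: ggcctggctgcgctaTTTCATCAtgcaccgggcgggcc
Tars: gggccaggagtcccgTTGCATCAgctggtt
They lie at chr7:126625558-126625595, minus strand (Nupr1), chr2:119351034-119351071, plus strand (Chac1), chr6:7693210-7693247, minus strand (Asns), chr6:55037956-55037993, plus strand (Gars) and chr15:11399659-11399688, minus strand (Tars). The base of the match nearest to the start site lay 7 bases before it in Tars, 15 in Asns, 22 in Gars, 102 in Nupr1 and 185 in Chac1. In all but Asns the core lies on the strand opposite to the gene, so that its reverse complement is printed.

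Of 19 tested genes of the amino acid response 1 rose and 12 fell, and without WT FBS 1, 2 rose and 14 fell, and without any other 1 of the libraries 0 rose and 7 to 12 fell. Atf4 itself stood at 198, 173 and 265 CPM in FBS and 105, 121 and 118 CPM in paused cells (log2 −0.89 ± 0.15, edgeR adjusted p = 0.000738). Its partner Cebpb (−1.25 ± 0.24) and the related factor Atf5 (−0.62 ± 0.13) fell too. Nupr1, a stress-induced chromatin protein, had 299 counts in the 3 FBS libraries and 1 in the 3 paused libraries, a level 172-fold lower (30.7 to 6830), the range being a 95% interval for counting error only. Trib3, a pseudokinase that curbs Atf4, fell from 6.53, 15.2 and 34.7 CPM to 3.33, 1.49 and 2.39 CPM (log2 −3.0 ± 0.50, edgeR adjusted p = 0.000745), or by 2.26 without WT FBS 3. Chac1, which degrades glutathione, had a mean of 8.34 ± 9.37 CPM in FBS and 1.01 ± 0.337 CPM in paused cells (SD, n = 3; log2 −3.13 ± 0.72, edgeR adjusted p = 0.0051). WT FBS 3 carried much of that difference, and without it the value was −1.72. In both genes WT FBS 3 was the highest library. The gene that rose, the amino acid sensor kinase Eif2ak4 (0.28 ± 0.09), lost its call without WT FBS 2 or 3 or any 1 of the paused libraries.

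The 3 enzymes that make serine from a glycolytic intermediate all fell. Psat1, the aminotransferase of the pathway, fell from 187, 344 and 451 CPM to 47.5, 52.5 and 55.6 CPM (log2 −2.66 ± 0.24, edgeR adjusted p = 1.11e-05). Phgdh, the first enzyme, fell from 72.3, 148 and 178 CPM to 31.7, 33.7 and 33.3 CPM (log2 −2.02 ± 0.25, edgeR adjusted p = 0.000104), and Psph, the last, fell from 12.1, 29.9 and 38.3 CPM to 5.79, 5.32 and 5.69 CPM (log2 −2.28 ± 0.31, edgeR adjusted p = 0.000224). For all 3 enzymes the highest paused library lay below the lowest FBS library, as at 19.2% of all tested genes. Mitochondrial folate enzymes, which take 1-carbon units from serine, followed. Mthfd2 stood at 35.6, 80.4 and 152 CPM in FBS and 7.75, 7.57 and 11.9 CPM in paused cells (log2 −3.27 ± 0.42, edgeR adjusted p = 0.000149; −2.68 without WT FBS 3), Mthfd1l at −0.90 ± 0.12, Shmt2 at −0.94 ± 0.20 and the glycine decarboxylase Gldc at −1.09 ± 0.08. Among the 18 folate enzymes 0 rose and 7 fell, and without WT FBS 1, 1 rose and 12 fell, and without any other 1 of the libraries 0 rose and 4 to 6 fell. The serine enzymes were called in every one of these fits.

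**Figure D2:**
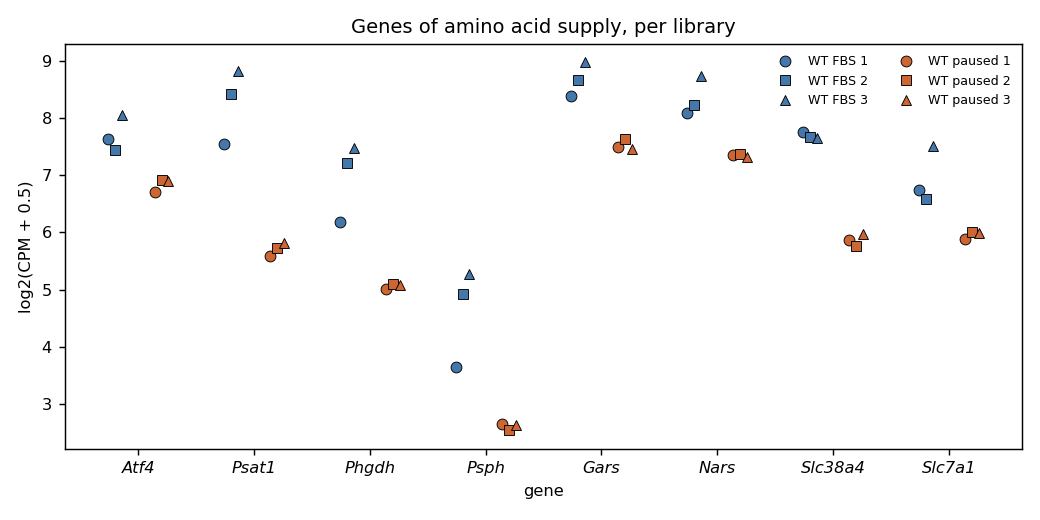
Levels of genes of amino acid supply in each WT library. The vertical axis gives log2 CPM (CPM plus 0.5) and each point is 1 library of WT FBS or WT paused cells. For Atf4, Psat1, Phgdh, Psph, Gars, Nars, Slc38a4 and Slc7a1 the 3 paused libraries lie together and below every FBS library, while the FBS libraries spread, WT FBS 3 being the highest for all of these but Slc38a4. Paused libraries lay below every FBS library at 19.2% of all tested genes.

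Charging of transfer RNAs split by compartment. Among 23 genes of cytosolic synthetases and their scaffold 0 rose and 20 fell, and without WT FBS 1, 0 rose and 22 fell, and without any other 1 of the libraries 0 rose and 18 to 20 fell. Gars for glycine fell from 334, 403 and 501 CPM to 181, 199 and 176 CPM (log2 −1.16 ± 0.13, edgeR adjusted p = 4.6e-05), Sars for serine fell from 151, 162 and 214 CPM to 78.1, 83.6 and 88.4 CPM (log2 −1.08 ± 0.13, edgeR adjusted p = 0.000104) and Nars for asparagine fell from 272, 299.7 and 425 CPM to 162, 166 and 159.6 CPM (log2 −1.03 ± 0.13, edgeR adjusted p = 0.000153). Tars (−1.08 ± 0.11), Yars (−0.96 ± 0.20), Aars (−0.89 ± 0.17) and Wars (−0.89 ± 0.13) fell as well. Of the 16 mitochondrial synthetases 1 rose (2 with the replicate number as a block) and 3 fell, with a median of 0.03 against −0.70 for the cytosolic ones. The mitochondrial one that fell in every fit that left out 1 library was Iars2 (−0.38 ± 0.07).

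Amino acid transporters and synthesis enzymes fell in part. Slc38a4, a carrier of neutral amino acids, stood at 215, 203 and 201 CPM in FBS and 57.9, 53.8 and 62.3 CPM in paused cells (log2 −1.83 ± 0.09, edgeR adjusted p = 5.12e-07). The cationic amino acid carrier Slc7a1 fell from 106, 95.5 and 182 CPM to 58.5, 63.9 and 63 CPM (log2 −1.05 ± 0.19, edgeR adjusted p = 0.00138). Asns, which makes asparagine, fell from 142, 148 and 189 CPM to 98.2, 102 and 99.8 CPM (log2 −0.68 ± 0.10, edgeR adjusted p = 0.000336), Bcat1 of branched-chain amino acids stood at −0.69 ± 0.14 and Aldh18a1 of proline synthesis at −0.94 ± 0.22. Glul, glutamine synthetase, moved the other way, at 369.9, 424 and 396 CPM in FBS and 486, 532 and 546 CPM in paused cells (log2 0.39 ± 0.10, edgeR adjusted p = 0.0104), although its call was lost without WT paused 3. Among the 17 transporters 0 rose and 8 fell, and without WT FBS 1, 0 rose and 9 fell, and without any other 1 of the libraries 0 rose and 4 to 6 fell.

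Genes of the protein synthesis machinery were called lower to varying extents. Of 80 tested cytosolic ribosomal protein genes 1 rose and 15 fell (4 and 30 with the block), and without WT FBS 1, 1 rose and 59 fell, and without any other 1 of the libraries 0 or 1 rose and 7 to 12 fell. With all libraries the share that fell (18.8%) was near the 20.1% of all genes. Their summed level was 39500, 51400 and 51700 CPM in FBS and 38300, 43800 and 43300 CPM in paused cells, so that WT FBS 1 resembled the paused libraries. Rpl41 fell from 479, 584 and 592 CPM to 294, 348 and 335 CPM (log2 −0.76 ± 0.11, edgeR adjusted p = 0.000295) and Rps2 (−0.48 ± 0.11) and Rpl7a (−0.61 ± 0.14) fell too. Ribosomal protein genes have many near-identical processed copies in the genome, and how reads of those were counted is not given in the sources used here. Of 46 translation factors 3 rose and 34 fell (without WT FBS 1, 5 rose and 38 fell, and without any other 1 of the libraries 2 or 3 rose and 26 to 30 fell). The difference from the ribosomal protein genes was not tested. Subunits of the start-codon factor eIF2 such as Eif2s3x (−0.85 ± 0.09), of the scaffold eIF3 such as Eif3e (−0.74 ± 0.14), and the poly(A)-binding protein Pabpc1 (−0.74 ± 0.13) were among the latter. Eef1d of the elongation complex stood at 152, 295 and 294 CPM in FBS and 108, 122 and 132 CPM in paused cells (log2 −1.04 ± 0.20, edgeR adjusted p = 0.00173). Eif4g3, a scaffold of cap-dependent initiation, rose from 142, 145 and 151 CPM to 233, 244 and 245 CPM (log2 0.72 ± 0.07, edgeR adjusted p = 1.97e-05). The translation repressor Pdcd4 also rose (1.09 ± 0.23).

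Building of ribosomes and its polymerases followed the same trend. Of 61 ribosome biogenesis genes 0 rose and 37 fell (without WT FBS 1, 0 rose and 60 fell, and without any other 1 of the libraries 0 rose and 26 to 31 fell). Npm1, a nucleolar chaperone of pre-ribosomes, fell from 2593, 3683 and 3599 CPM to 1994, 2166 and 2108 CPM (log2 −0.66 ± 0.13, edgeR adjusted p = 0.00207). RNA polymerase I subunits Polr1e (−0.77 ± 0.18) and Polr1d (−0.59 ± 0.14) fell. Over polymerases I and III and their factors 3 of 37 rose and 13 fell (without WT FBS 1, 3 rose and 23 fell, and without any other 1 of the libraries 2 or 3 rose and 8 to 11 fell). Brf1, which places polymerase III at tRNA genes, rose from 27.1, 27.9 and 26.5 CPM to 44.6, 38.7 and 43.1 CPM (log2 0.63 ± 0.09, edgeR adjusted p = 0.000287), as did Polr3gl (0.80 ± 0.15). Of 77 mitochondrial ribosomal protein genes 0 rose and 52 fell (without WT FBS 1, 0 rose and 73 fell, and without any other 1 of the libraries 0 rose and 31 to 46 fell), such as Mrpl13 (−0.91 ± 0.16) and Mrpl45 (−0.85 ± 0.11).

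Protein folding and disposal fell alongside. Of 43 proteasome genes 0 rose and 30 fell (without WT FBS 1, 0 rose and 41 fell, and without any other 1 of the libraries 0 rose and 17 to 25 fell). Psmd14, the deubiquitinase of the lid, stood at 90.4, 151 and 146 CPM in FBS and 76.5, 70.8 and 68.8 CPM in paused cells (log2 −0.85 ± 0.15, edgeR adjusted p = 0.00121). Among 14 genes of the chaperonin TRiC and prefoldin 0 rose and 11 fell (without WT FBS 1, 0 rose and 14 fell, and without any other 1 of the libraries 0 rose and 8 to 10 fell), with Cct6a at −0.75 ± 0.18. For Rpl41, Eef1d, Npm1 and Psmd14 alike, WT FBS 1 lay between the paused and the other FBS libraries.

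**Figure D3:**
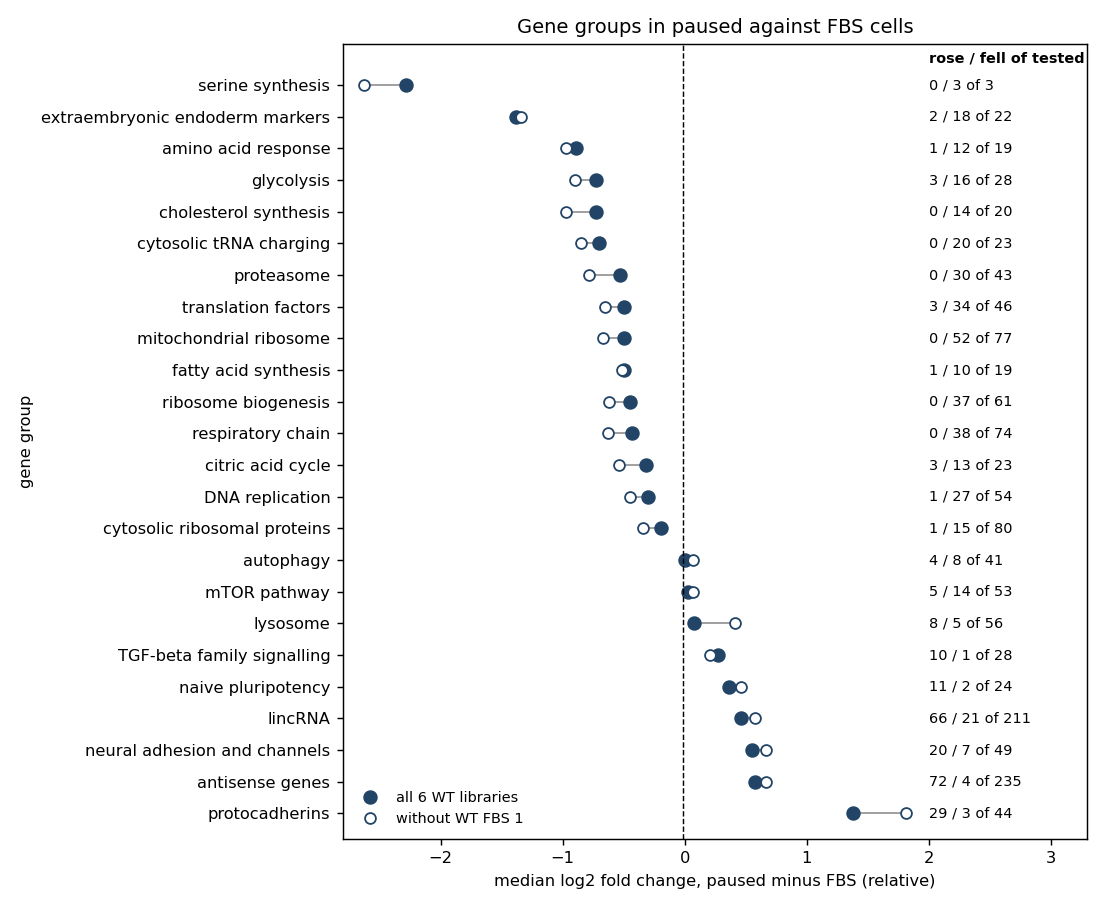
Median log2 fold change (paused minus FBS, relative scale) of gene groups, with all 6 WT libraries (filled circles) and without WT FBS 1 (open circles); the numbers at the right give members that rose and fell of those tested, with all libraries. The dashed line marks the median of all 15281 genes (−0.01). Groups of amino acid supply, lipid synthesis and energy lie to the left, the lysosome group moves from 0.08 to 0.41 when WT FBS 1 is left out, and protocadherins lie farthest to the right.

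Sugar and energy metabolism fell, with a few exceptions. Glycolysis, the conversion of glucose to pyruvate and lactate, had 3 of 28 genes risen and 16 fallen (without WT FBS 1, 5 rose and 17 fell, and without any other 1 of the libraries 1 or 2 rose and 15 or 16 fell). Ldha, which makes lactate, stood at 282, 688 and 756 CPM in FBS and 116, 115 and 125 CPM in paused cells (log2 −2.28 ± 0.28, edgeR adjusted p = 0.000117). Pgk1 fell from 309, 465 and 463 CPM to 123, 133 and 129 CPM (log2 −1.68 ± 0.15, edgeR adjusted p = 1.11e-05), and Tpi1 (−1.56 ± 0.24), Pgam1 (−1.22 ± 0.19) and Pkm (−1.03 ± 0.14) fell too. Entry and exit of the pathway were lower as well, with the glucose transporter Slc2a1 at −1.45 ± 0.27 and the lactate carrier Slc16a3 from 8.19, 39.7 and 36.8 CPM to 8.14, 7.38 and 7.77 CPM (log2 −1.90 ± 0.41, edgeR adjusted p = 0.00392). Ldhb, the lactate dehydrogenase subunit common in oxidative tissues, rose from 143, 64.3 and 73 CPM to 170.4, 186 and 174 CPM (log2 0.93 ± 0.23, edgeR adjusted p = 0.0074). Of 74 nuclear-encoded respiratory chain genes 0 rose and 38 fell (without WT FBS 1, 0 rose and 71 fell, and without any other 1 of the libraries 0 rose and 19 to 29 fell), for example Ndufs8 of complex I (−1.0 ± 0.22) and Atp5c1 of ATP synthase (−0.80 ± 0.12). In the citric acid cycle 3 of 23 rose and 13 fell (without WT FBS 1, 3 rose and 19 fell, and without any other 1 of the libraries 3 rose and 7 to 9 fell). Those that rose were Pcx, which refills the cycle from pyruvate (16.3, 20.4 and 22.3 CPM in FBS and 31.8, 40.3 and 36.5 CPM in paused cells; log2 0.87 ± 0.16, edgeR adjusted p = 0.00165), Idh2 (0.67 ± 0.12) and Aco1 (0.40 ± 0.08), while citrate synthase Cs fell (−0.72 ± 0.11).

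Nucleotide and lipid synthesis, both stimulated by mTOR, were lower. Of 17 purine and pyrimidine synthesis genes 1 rose and 11 fell (without WT FBS 1, 1 rose and 16 fell, and without any other 1 of the libraries 0 or 1 rose and 9 or 10 fell). Prps2, which makes the activated ribose of nucleotides, fell from 25.8, 45.6 and 48.9 CPM to 12.7, 14.4 and 11 CPM (log2 −1.68 ± 0.20, edgeR adjusted p = 9.78e-05), Impdh1 stood at −1.02 ± 0.17 and Atic at −0.79 ± 0.11. Fatty acid synthesis had 1 of 19 risen and 10 fallen (without WT FBS 1, 1 rose and 17 fell, and without any other 1 of the libraries 1 rose and 10 or 11 fell). The desaturases Scd1 (from 55.9, 80.5 and 73.8 CPM to 9.61, 9.06 and 10.1 CPM; log2 −2.87 ± 0.13, edgeR adjusted p = 5.12e-07) and Fads2 (−1.81 ± 0.17) and the carboxylase Acaca (−1.26 ± 0.11) fell. Acacb, the carboxylase isoform at mitochondria that restrains fatty acid oxidation, rose from 30.5, 31.2 and 29.9 CPM to 44.7, 47.4 and 49.9 CPM (log2 0.63 ± 0.08, edgeR adjusted p = 0.000137). Srebf1, a transcription factor of lipid genes, fell (−0.50 ± 0.12). Of 20 cholesterol synthesis genes 0 rose and 14 fell. Without WT FBS 1, 0 rose and 18 fell, and without any other 1 of the libraries 0 rose and 9 to 11 fell. With the 6 WT libraries alone 0 rose and 6 fell.

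Iron storage changed with metabolism. The ferritin heavy chain Fth1 fell from 287, 384 and 358 CPM to 119.6, 115 and 128 CPM (log2 −1.50 ± 0.11, edgeR adjusted p = 3.45e-06) and the haem-degrading enzyme Hmox1 fell from 70.6, 79.1 and 91.6 CPM to 36.8, 34.8 and 34.7 CPM (log2 −1.19 ± 0.12, edgeR adjusted p = 3.58e-05). Both had paused libraries at less than the lowest FBS value, as did 19.2% of all tested genes.

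Lysosome and autophagy genes are held back by active mTOR, and the result for the lysosome list depended on 1 library. With all libraries 8 of 56 lysosome genes rose (14.3%) and 5 fell (8.93%), against 18.5% and 20.1% of all genes, with a median of 0.08. Without WT FBS 1, 34 rose and 6 fell with a median of 0.41, and without any other 1 of the libraries 4 to 6 rose and 5 or 6 fell. Their summed level was 4370, 2320 and 2290 CPM in FBS and 3150, 3310 and 3090 CPM in paused cells, so that WT FBS 1 was the highest of the 6 libraries. Mcoln1, the lysosomal calcium channel, shows this at 63.6, 17.2 and 16.8 CPM in FBS and 38.5, 43.2 and 38.8 CPM in paused cells, where the paused libraries lie between WT FBS 1 and the others. It was not called (log2 0.35 ± 0.39, edgeR adjusted p = 0.499), but was at 1.20 and called without WT FBS 1. Genes that rose in every fit that left out 1 library included the thioesterase Ppt1 (21.8, 17 and 18 CPM in FBS and 38, 34.8 and 38.9 CPM in paused cells; log2 0.99 ± 0.11, edgeR adjusted p = 4.02e-05), the mannosidase Manba (0.68 ± 0.08) and the protease Ctsf (1.25 ± 0.22). The protease gene Ctsc fell from 14.6, 6.07 and 6.14 CPM to 1.37, 1.4 and 1.49 CPM (log2 −2.57 ± 0.35, edgeR adjusted p = 0.000199) and Lipa, the acid lipase, fell (−0.92 ± 0.21). Among 41 autophagy genes 4 rose (9.76%) and 8 fell (19.5%), or 7 and 10 with the replicate block. Without WT FBS 1, 14 rose and 11 fell, in a fit where 28.2% and 31.8% of all genes did. Without any other 1 of the libraries 2 or 3 rose and 5 to 7 fell. The autophagy median was 0.07 without WT FBS 1, near its value with all libraries. Beside Ulk2, the receptor Optn rose (1.38 ± 0.32), while Atg5 (−0.80 ± 0.09) and the receptor Calcoco2 (5.46, 10 and 12.3 CPM in FBS and 1.96, 1.59 and 2.71 CPM in paused cells; log2 −2.13 ± 0.28, edgeR adjusted p = 0.00016) fell.

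Cell cycle genes fell in part. Of 54 DNA replication genes 1 rose (2 with the block) and 27 fell (without WT FBS 1, 2 rose and 43 fell, and without any other 1 of the libraries 0 rose and 22 to 27 fell), with Rrm2, which makes deoxynucleotides, at 328, 441 and 449 CPM in FBS and 189.6, 200.0 and 217 CPM in paused cells (log2 −1.01 ± 0.13, edgeR adjusted p = 0.000149), Rpa1 at −0.85 ± 0.09 and Pcna at −0.76 ± 0.15. Of 40 genes of G2 and mitosis 5 rose (12.5%) and 15 fell (37.5%), against 18.5% and 20.1% of all genes. The kinases Aurka (−0.62 ± 0.08) and Plk1 (−0.54 ± 0.08) were among the latter. Without WT FBS 1, 6 rose and 23 fell, in a fit where 28.2% and 31.8% of all genes did. Without any other 1 of the libraries 1 to 4 rose and 10 to 14 fell. Ccne1, the cyclin of entry into S phase, stood at 97.8, 288 and 255 CPM in FBS and 74.2, 74.3 and 77.2 CPM in paused cells (log2 −1.51 ± 0.29, edgeR adjusted p = 0.00171), and the phosphatase Cdc25a fell (−0.82 ± 0.18). Rbl1, a retinoblastoma-like repressor, rose from 21.9, 36.3 and 33.1 CPM to 49.8, 49.8 and 46.5 CPM (log2 0.66 ± 0.16, edgeR adjusted p = 0.00666). The CDK inhibitor Cdkn1c fell from 20, 55.7 and 88.4 CPM to 3.92, 8.5 and 7.91 CPM (log2 −3.01 ± 0.44, edgeR adjusted p = 0.000359). None of 38 replication-dependent histone genes was called by edgeR, and 1 had an unadjusted p under 0.05, while 2 fell by DESeq2 and 3 with the replicate block. Their median was −0.46 with all libraries and 0.31 without WT FBS 1, where 3 rose. These messages lack a poly(A) tail, and their summed level was 334, 73.8 and 77.4 CPM in FBS and 146, 89.3 and 77.1 CPM in paused cells. Among p53 targets Plk2 (−1.20 ± 0.30) and Zmat3 (−0.71 ± 0.13) were lower. Myc was not called at 29.9, 121 and 100.2 CPM in FBS and 81.2, 96 and 78.8 CPM in paused cells (log2 0.01 ± 0.33, edgeR adjusted p = 0.983) but was lower without WT FBS 1 (−0.42), and Mycn was not called either (0.41 ± 0.19), though higher without WT FBS 3 (0.58) and with the block (0.45).

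Naive pluripotency genes rose more often than they fell. Of 24 naive pluripotency genes 11 rose and 2 fell, against 18.5% and 20.1% of all genes, and without WT FBS 1, 15 rose and 3 fell, and without any other 1 of the libraries 9 or 10 rose and 2 or 3 fell. Prdm14, a repressor that guards the naive state, stood at 27, 18.6 and 19.7 CPM in FBS and 54, 47.1 and 52 CPM in paused cells (log2 1.24 ± 0.14, edgeR adjusted p = 7.33e-05). Nanog rose from 171, 238 and 249 CPM to 424, 413 and 412 CPM (log2 0.93 ± 0.12, edgeR adjusted p = 0.000173). Lifr, the receptor of LIF, rose from 286, 216 and 256 CPM to 484, 429 and 445 CPM (log2 0.84 ± 0.10, edgeR adjusted p = 0.000105), and Tcl1 (0.88 ± 0.15) and Klf4 (0.75 ± 0.19) rose too. Klf4 lost its call with the 6 WT libraries alone. Sall1, a zinc finger factor of the core network, rose from 226, 215 and 221 CPM to 412, 422 and 425 CPM (log2 0.93 ± 0.08, edgeR adjusted p = 1.03e-05). Pou5f1 (601, 928 and 960.1 CPM in FBS and 744, 877 and 858 CPM in paused cells) and Sox2 (366, 529.9 and 552 CPM in FBS and 578, 595 and 663 CPM in paused cells) were not called with all libraries, at log2 −0.01 ± 0.16 and 0.34 ± 0.14, though Pou5f1 was lower without WT FBS 1 (−0.23) and Sox2 higher with the replicate block (0.36). Dppa5a (197, 335 and 359 CPM in FBS and 89.7, 93.4 and 107 CPM in paused cells; log2 −1.62 ± 0.19, edgeR adjusted p = 8.66e-05) and Dppa3 (−2.03 ± 0.39, or −2.89 without WT paused 3), 2 further naive markers, fell. Per cell none of the naive genes was called higher by edgeR, and none of them was higher at an unadjusted p under 0.05. Per cell 11 of the 24 were called lower (10 without WT FBS 1), against 68.8% of all genes.

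Genes of the primed state, into which naive cells pass before differentiation, moved in both directions. Of 22 such genes 3 rose (13.6%) and 8 fell (36.4%), against 18.5% and 20.1% of all genes. Without WT FBS 1, 3 rose and 13 fell, and without any other 1 of the libraries 2 or 3 rose and 8 or 9 fell. The transcription factors Otx2 (from 19, 35.3 and 25.3 CPM to 11.3, 10.4 and 14.6 CPM; log2 −1.14 ± 0.26, edgeR adjusted p = 0.00526), Sox3 (−3.38 ± 0.41) and Lef1 (−3.22 ± 0.61) fell, and Fgf5, the growth factor of the primed epiblast, had 77 counts in FBS and 1 in paused cells, a level 44.4-fold lower (7.73 to 1780). Zic2, a zinc finger factor, instead rose from 11.2, 29.3 and 30.7 CPM to 135, 129 and 122 CPM (log2 2.40 ± 0.27, edgeR adjusted p = 5.5e-05) and was called higher per cell (log2 1.37 ± 0.32, edgeR adjusted p = 0.000115).

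Enzymes of DNA methylation shifted in opposite ways. The de novo methyltransferase Dnmt3b fell from 77.7, 184 and 177 CPM to 54.2, 64.1 and 59.5 CPM (log2 −1.31 ± 0.25, edgeR adjusted p = 0.00173), whereas its cofactor Dnmt3l rose from 51.3, 85.1 and 82.3 CPM to 219, 210.2 and 215 CPM (log2 1.55 ± 0.19, edgeR adjusted p = 9.58e-05). The dioxygenases that oxidize 5-methylcytosine rose, Tet1 from 1345, 1155 and 1265 CPM to 2227, 1975 and 2123 CPM (log2 0.75 ± 0.09, edgeR adjusted p = 8.66e-05), Tet2 (0.87 ± 0.16) and Tet3 (0.80 ± 0.13). Dnmt1, which maintains methylation, was not called (366, 347 and 379 CPM in FBS and 339, 367 and 403 CPM in paused cells). Over 16 enzymes and readers 7 rose and 4 fell (without WT FBS 1, 7 rose and 5 fell, and without any other 1 of the libraries 6 rose and 3 or 4 fell). Mbd1, a reader of methylated DNA, was among those that rose (0.62 ± 0.12). In the Polycomb group, which deposits repressive marks, 3 of 27 genes rose and 6 fell, shares near or below those of all genes (without WT FBS 1, 6 rose and 12 fell, and without any other 1 of the libraries 0 to 2 rose and 5 or 6 fell), with the core subunits Ezh2 (−0.45 ± 0.08) and Eed (−0.52 ± 0.08) among the latter. Writers and erasers of H3K4 methylation had 8 of 17 risen and 2 fallen (without WT FBS 1, 9 rose and 6 fell, and without any other 1 of the libraries 6 or 7 rose and 2 fell), led by Setd1b (from 118, 107 and 112 CPM to 257, 276 and 247 CPM; log2 1.21 ± 0.08, edgeR adjusted p = 1.93e-06). Germline genes repressed by DNA methylation were not raised as a group. Of 23, 3 rose (13.0%) and 7 fell (30.4%), against 18.5% and 20.1% of all genes. Without WT FBS 1, 5 rose and 9 fell, in a fit where 28.2% and 31.8% of all genes did. Without any other 1 of the libraries 1 to 3 rose and 6 to 8 fell. Piwil2 (1.04 ± 0.11) rose and Rhox5 (−3.0 ± 0.32; −3.65 without WT paused 3) fell.

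Imprinted genes at Meg3 and its neighbours rose together. Meg3, a noncoding RNA of the Dlk1 to Dio3 region on chromosome 12, rose from 19.7, 28.1 and 30.8 CPM to 62.1, 55.5 and 74.3 CPM (log2 1.28 ± 0.16, edgeR adjusted p = 0.000117), with Rian (1.07 ± 0.19), Mirg (1.56 ± 0.26) and Rtl1 (1.48 ± 0.23) of the same cluster. On chromosome 7 the noncoding Kcnq1ot1 rose from 438, 351 and 399.9 CPM to 1174, 777 and 974 CPM (log2 1.30 ± 0.19, edgeR adjusted p = 0.000308), while Cdkn1c of the same domain, given above, fell. Igf2 (from 8.97, 5.65 and 12.5 CPM to 0.882, 1.49 and 1.08 CPM; log2 −2.97 ± 0.35, edgeR adjusted p = 9.12e-05) and H19 (−1.64 ± 0.26) also fell. Of 34 imprinted genes 11 rose (32.4%) and 7 fell (20.6%), against 18.5% and 20.1% of all genes. Without WT FBS 1, 13 rose and 11 fell, in a fit where 28.2% and 31.8% of all genes did. Without any other 1 of the libraries 8 to 11 rose and 6 or 7 fell. Mirg, Rian and Meg3 lie on the same strand and may share reads of 1 long transcript.

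Markers of extraembryonic endoderm, a lineage that appears spontaneously in serum cultures, fell. Of 22 markers 2 rose and 18 fell, with a median of −1.38 (without WT FBS 1, 2 rose and 18 fell, and without any other 1 of the libraries 1 or 2 rose and 16 to 19 fell). The regulators Gata6 (from 4.68, 5.01 and 6.64 CPM to 0.196, 0.56 and 0.768 CPM; log2 −3.27 ± 0.32, edgeR adjusted p = 2.4e-05) and Gata4 (−2.11 ± 0.24) fell, and Sox17 had 107 counts in FBS and 3 in paused cells, a level 20.6-fold lower (6.85 to 101). The endocytic receptor Cubn stood at 53.4, 20.4 and 29.1 CPM in FBS and 1.96, 1.12 and 6.23 CPM in paused cells (log2 −3.28 ± 0.47, edgeR adjusted p = 0.000278; −4.48 without WT paused 3), Amn, its partner, at −2.13 ± 0.39, and the collagen Col4a1 at −1.35 ± 0.16. Lamc1, a laminin chain, rose (0.61 ± 0.10). The summed level of the list was 1760, 1400 and 1710 CPM in FBS and 1790, 1720 and 1760 CPM in paused cells. Lamc1, which other cells also express, accounted for 944, 689.8 and 862 CPM in FBS and 1306, 1268 and 1242 CPM in paused cells. A smaller share of endoderm-like cells and less marker RNA per cell cannot be told apart in these bulk libraries.

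Markers of other lineages moved both ways. Of 24 fibroblast and mesenchymal markers 4 rose (16.7%) and 10 fell (41.7%), against 18.5% and 20.1% of all genes. Without WT FBS 1, 4 rose and 12 fell, and without any other 1 of the libraries 3 or 4 rose and 8 to 10 fell. Acta2, smooth muscle actin, had 117 counts in FBS and 1 in paused cells, a level 67.5-fold lower (11.9 to 2690). Vim stood at −1.33 ± 0.20 and Col1a1 at −2.68 ± 0.43. Among those that rose were Ctgf (from 20.7, 44.7 and 39.2 CPM to 90.3, 84.7 and 79.1 CPM; log2 1.26 ± 0.20, edgeR adjusted p = 0.000602) and Cyr61 (0.92 ± 0.15), which are also targets of the Yap pathway. The Yap-binding protein Amot fell from 13.6, 13.8 and 17.9 CPM to 0.784, 1.03 and 1.22 CPM (log2 −3.84 ± 0.21, edgeR adjusted p = 5.12e-07). Of 14 trophoblast markers 1 rose (7.14%) and 5 fell (35.7%), the keratin Krt19 among the latter (−2.90 ± 0.31, and −3.84 without WT paused 3). Without WT FBS 1, 2 rose and 6 fell, and without any other 1 of the libraries 0 or 1 rose and 5 or 6 fell. Of 16 mesendoderm markers 3 rose (18.8%) and 6 fell (37.5%), against 18.5% and 20.1% of all genes. Without WT FBS 1, 3 rose and 7 fell, and without any other 1 of the libraries 2 or 3 rose and 4 to 6 fell. The 3 that rose with all libraries were Nodal and its inhibitors Lefty1 and Lefty2 (from 9.46, 100.0 and 72.9 CPM to 232, 282 and 142 CPM; log2 1.82 ± 0.54, edgeR adjusted p = 0.0187), genes also counted in the TGF-beta list below. Lefty2 lost its call without WT paused 1 or 2, with the 6 WT libraries alone and without a filter on low counts. The summed level of the list was 58.8, 207 and 176 CPM in FBS and 406, 513 and 291 CPM in paused cells. The part of differentiated cells in these changes was not tested.

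Several neural genes rose, and some fell. Sox1, a factor of neural progenitors, stood at 13, 16.6 and 22.2 CPM in FBS and 122, 142 and 106 CPM in paused cells (log2 2.82 ± 0.25, edgeR adjusted p = 1.03e-05) and was called higher per cell (log2 1.78 ± 0.33, edgeR adjusted p = 1.42e-06). Sox21 rose from 4.48, 2.31 and 3.41 CPM to 14.6, 15.3 and 12 CPM (log2 2.11 ± 0.20, edgeR adjusted p = 1.83e-05) and Ncam1, a neural cell adhesion molecule, rose from 16.1, 9.83 and 14.3 CPM to 51.1, 47.7 and 48.8 CPM (log2 1.90 ± 0.17, edgeR adjusted p = 1.09e-05). Nes, an intermediate filament of neural progenitors, fell from 13.7, 32 and 38.6 CPM to 8.14, 9.53 and 4.83 CPM (log2 −1.98 ± 0.32, edgeR adjusted p = 0.000628), and Neurod1 fell too (−1.54 ± 0.30). Over 17 neural progenitor markers 4 rose (23.5%) and 3 fell (17.6%), near the 18.5% and 20.1% of all genes. Without WT FBS 1, 4 rose and 4 fell, and without any other 1 of the libraries 4 rose and 2 to 4 fell. The list thus did not move one way. A broader set of 49 neural adhesion, guidance and channel genes had 20 risen and 7 fallen with a median of 0.55 (without WT FBS 1, 24 rose and 11 fell, and without any other 1 of the libraries 16 to 19 rose and 6 or 7 fell), and 7 of them rose per cell. St8sia2, which attaches polysialic acid to Ncam1, went from 0.39, 0.223 and 0.456 CPM to 5.59, 5.6 and 5.69 CPM (log2 4.03 ± 0.27, edgeR adjusted p = 1.93e-06). Nalcn, a sodium leak channel, rose from 0.585, 0.418 and 0.491 CPM to 6.47, 6.72 and 6.14 CPM (log2 3.74 ± 0.25, edgeR adjusted p = 1.93e-06) and Lrrn2 rose from 1.95, 2.2 and 2.95 CPM to 20.3, 28.4 and 21.7 CPM (log2 3.27 ± 0.19, edgeR adjusted p = 8.5e-07). Slit3, an axon guidance cue, rose from 3.9, 2.98 and 2.39 CPM to 19.7, 16.9 and 19.6 CPM (log2 2.66 ± 0.15, edgeR adjusted p = 5.12e-07). The guidance receptor Epha4 fell from 102, 69.9 and 79.5 CPM to 30.4, 29 and 33.9 CPM (log2 −1.42 ± 0.14, edgeR adjusted p = 2.4e-05) and Sema6a fell (−1.39 ± 0.17). St8sia2, Nalcn, Lrrn2 and Slit3 were at 3.9 CPM or less in every FBS library, so that these rises began from a low level.

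**Figure D4:**
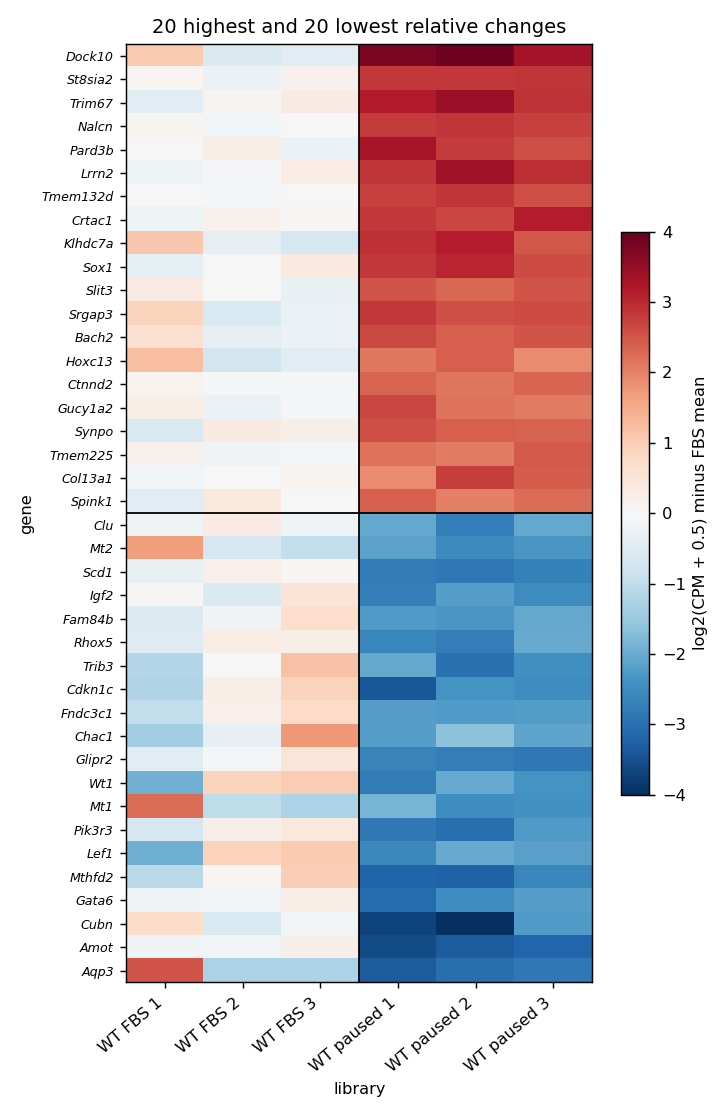
Genes with the largest relative changes. Rows are the 20 highest and 20 lowest log2 fold changes of called genes that reached 5 CPM in 1 group or both and whose groups did not overlap; columns are the 6 WT libraries. Colour gives log2 CPM (CPM plus 0.5) minus the mean of the 3 FBS libraries, from blue (lower) to red (higher), limited at −4 and 4. The paused libraries look alike, while in WT FBS 1 the rows Aqp3, Mt1 and Mt2 stand above the other FBS libraries.

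Protocadherins, adhesion proteins by which neurons tell their own branches from others, rose as a family. Of 44 tested genes 29 rose and 3 fell with a median of 1.38 (without WT FBS 1, 32 rose and 3 fell, and without any other 1 of the libraries 22 to 28 rose and 1 or 2 fell). The family was picked after its values had been seen. Most of these genes lie in 3 clusters on chromosome 18. Genes of the alpha cluster share exons with each other, as do those of the gamma cluster, so those rows are not independent. The gamma cluster ranged from Pcdhgc3, not called at 0.26 ± 0.18 (called at 0.45 without WT FBS 1), to Pcdhgb4 (2.92, 1.56 and 2.95 CPM in FBS and 11.4, 7.29 and 8.54 CPM in paused cells; log2 1.92 ± 0.31, edgeR adjusted p = 0.000648). Pcdh1, outside the clusters, fell from 6.82, 17.5 and 17.8 CPM to 6.86, 6.35 and 5.06 CPM (log2 −1.27 ± 0.28, edgeR adjusted p = 0.00452).

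Signals of the TGF-beta family rose in part. Nodal, a growth factor of the early embryo, rose from 24.4, 35.8 and 36 CPM to 54.2, 63.9 and 48.2 CPM (log2 0.78 ± 0.16, edgeR adjusted p = 0.00277). Its inhibitor Lefty1 rose from 10.8, 51.2 and 47.8 CPM to 112, 158 and 93.8 CPM (log2 1.69 ± 0.39, edgeR adjusted p = 0.00512), with WT FBS 1 the lowest library. The transducer Smad3 (1.04 ± 0.12) and the feedback inhibitor Smad7 (from 62.2, 132 and 127 CPM to 268, 277 and 252 CPM; log2 1.31 ± 0.21, edgeR adjusted p = 0.000582) rose, and Id4 stood at 2.10 ± 0.36. Of 28 genes of the pathway 10 rose and 1 fell (without WT FBS 1, 14 rose and 3 fell, and without any other 1 of the libraries 9 or 10 rose and 1 or 2 fell). Of 37 Wnt genes 9 rose (24.3%) and 6 fell (16.2%), near the 18.5% and 20.1% of all genes. Without WT FBS 1, 13 rose and 10 fell, and without any other 1 of the libraries 7 to 9 rose and 4 to 6 fell. The secreted inhibitors Sfrp1 (from 143, 118 and 119 CPM to 308, 315 and 321 CPM; log2 1.32 ± 0.09, edgeR adjusted p = 3.24e-06) and Notum (1.20 ± 0.24) and the receptor Fzd5 (0.92 ± 0.07) rose, and the coreceptor Lrp5 fell (−0.74 ± 0.09). Dkk1, another secreted inhibitor, had 57 counts in FBS and 8 in paused cells, a level 4.11-fold lower (1.95 to 9.97). Among ERK feedback genes Spry4 (0.49 ± 0.10) and Spred1 (0.52 ± 0.11) rose, whereas the immediate early genes Jun (−1.20 ± 0.25) and Ier5 (−1.98 ± 0.24) fell.

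RNA classes differed. Of 211 long intergenic noncoding RNAs 66 rose and 21 fell with a median of 0.46 (without WT FBS 1, 98 rose and 27 fell, and without any other 1 of the libraries 39 to 53 rose and 15 to 19 fell). Of 235 antisense genes 72 rose and 4 fell, with a median of 0.58 (without WT FBS 1, 104 rose and 6 fell, and without any other 1 of the libraries 39 to 57 rose and 3 or 4 fell). Reads of an antisense gene and its partner may be mixed, since the sources used here do not say whether counting used strand. Zinc finger genes named Zfp had 128 of 349 risen and 16 fallen (without WT FBS 1, 165 rose and 36 fell, and without any other 1 of the libraries 88 to 101 rose and 10 to 13 fell), and small nucleolar RNA host genes had 2 of 16 risen and 8 fallen (without WT FBS 1, 2 rose and 10 fell, and without any other 1 of the libraries 0 or 1 rose and 8 fell), such as Snhg11 (−0.99 ± 0.13) and Snhg8 (−0.71 ± 0.13). Both symbol-based sets and the biotypes were chosen after values had been seen.

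Gene length went with the direction of change. Protein-coding genes were divided into 5 bins of equal size by their span in GENCODE vM21. In the longest bin, spans of 72.9 to 2960.0 kb, 29.8% rose and 13.1% fell with a median of 0.18. In the shortest bin, up to 8.23 kb, 12% rose and 21.3% fell, with a median of −0.12. Without WT FBS 1 the medians were 0.22 and −0.17. Bins by exon length gave the same order, from −0.19 in the shortest to 0.13 in the longest. Span, exon length and level go together among genes, and the part of library preparation in this pattern was not tested.

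**Figure D5:**
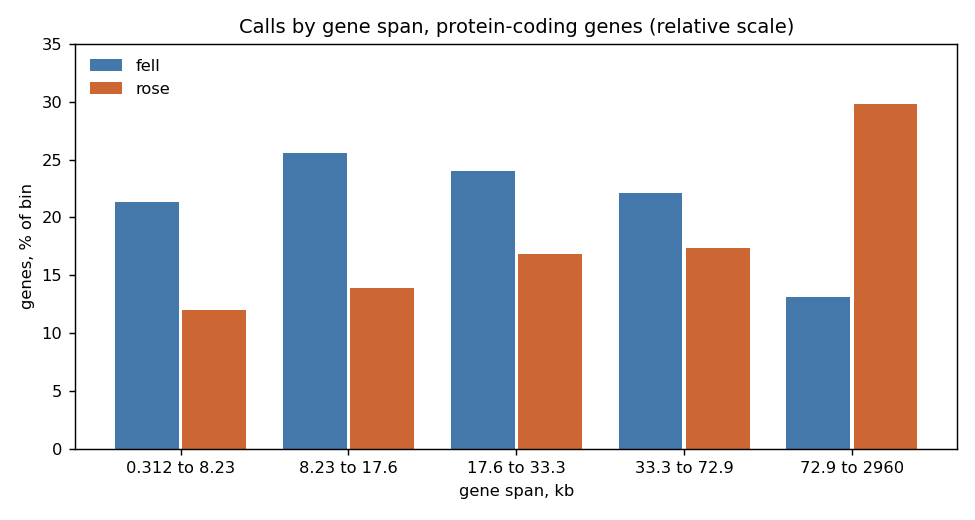
Share of genes that rose and fell by gene span. Bars give the percentage of protein-coding genes that rose (right-hand bar of each pair) or fell (left-hand bar) in 5 bins of 2844 or 2845 genes from the shortest to the longest span. The share that rose climbs from 12% to 29.8%, and the share that fell is lowest, at 13.1%, in the longest bin.

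At the upper extreme, beside the neural genes above, stood Dock10, an activator of small GTPases (chromosome 1, 80501073 to 80758527, minus strand), which rose from 3.31, 0.752 and 0.843 CPM to 24.7, 26.8 and 18 CPM (log2 4.14 ± 0.40, edgeR adjusted p = 1.94e-05; 4.80 without WT FBS 1). The ubiquitin ligase gene Trim67 rose from 0.195, 0.529 and 0.702 CPM to 8.14, 9.81 and 6.6 CPM (log2 3.88 ± 0.30, edgeR adjusted p = 4.41e-06), the polarity gene Pard3b rose from 0.487, 0.668 and 0.351 CPM to 9.32, 6.35 and 5.42 CPM (log2 3.74 ± 0.35, edgeR adjusted p = 1.47e-05), and Crtac1 rose from 3.22, 4.29 and 3.9 CPM to 29.6, 27 and 37.4 CPM (log2 3.02 ± 0.17, edgeR adjusted p = 5.12e-07). All 4 were called higher per cell, at log2 2.99 ± 0.39 (3.79 without WT FBS 1), 2.90 ± 0.41, 2.69 ± 0.43 and 1.98 ± 0.35. The transcription factor gene Bach2 rose from 10.9, 5.23 and 5.79 CPM to 46.4, 38.7 and 42.1 CPM (log2 2.61 ± 0.24, edgeR adjusted p = 1.23e-05). Ttn stood at 209, 118 and 131 CPM in FBS and 1106, 614 and 890.1 CPM in paused cells (log2 2.51 ± 0.29, edgeR adjusted p = 7.01e-05).

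At the lower extreme were Wt1, a transcription factor of kidney and gonad (from 2.92, 23.4 and 25.7 CPM to 1.37, 2.71 and 1.94 CPM; log2 −3.16 ± 0.59, edgeR adjusted p = 0.00165), Glipr2 (−3.13 ± 0.24), Clu, the extracellular chaperone clusterin (−2.84 ± 0.24), and Fndc3c1 (−3.08 ± 0.42). Some of the lowest fitted values rested on WT FBS 1. Aqp3, a water and glycerol channel, stood at 215, 15 and 15.5 CPM in FBS and 3.24, 4.11 and 4.65 CPM in paused cells. Its log2 value was −4.29 ± 0.94 with all libraries and −1.91 without WT FBS 1. The metallothionein Mt1 behaved likewise, at 249, 25.5 and 22.1 CPM in FBS and 14, 8.87 and 9.31 CPM in paused cells, with −3.19 ± 0.79 and −1.22 without WT FBS 1, and Mt2 went from −2.87 to −1.55.

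Whether the WT response was shared by Mettl3 KO cells was asked for each gene by testing the effect of pausing in KO cells minus its effect in WT cells. A positive value means a higher pausing effect in KO cells. edgeR called 2706 genes (17.7%), 1349 positive and 1357 negative. These counts were 3792 and 2708 without WT FBS 1, and the positive ones were 858, 871 and 891 without KO FBS 2, KO paused 2 and KO paused 3. Medians of this difference by chromosome ranged from −0.12 on chromosome 11 to 0.20 on chromosome 3. Of the 20 genes with the highest WT change 14 were called, 13 of them with a difference against the WT direction, and of the 20 lowest 9 were called, all 9 against it. Genes chosen for an extreme WT value lean that way by choice, so these counts describe the set only.

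Several groups described above had more positive than negative differences, against 8.83% positive and 8.88% negative over all genes. The WT effect enters this difference with reversed sign, so lists described for their WT change lean against it by choice. The counts of lists are from all libraries on the relative scale and describe these sets only. Of 40 genes of G2 and mitosis 23 were positive and 0 negative. The difference was positive for 6 of 19 genes of the amino acid response, 6 of 21 of serine and folate metabolism and 8 of 23 of cytosolic tRNA charging, with 0 negative in each, and of 31 genes of amino acid synthesis and transport 6 were positive and 2 negative. For Psat1 the difference was 1.83 ± 0.32, edgeR adjusted p = 0.00233, and for Sars it was 1.87 ± 0.18, edgeR adjusted p = 4.75e-05, so that both fell less in KO cells or did not fall. Slc38a4 stood at 0.92 ± 0.12, edgeR adjusted p = 0.000422 and Scd1 at 1.26 ± 0.18, edgeR adjusted p = 0.000609. Among 24 naive factors 1 was positive and 6 were negative. The pausing effect on Nanog was lower in KO than in WT cells (−1.34 ± 0.17, edgeR adjusted p = 0.000306), as was that on Cited2 (−1.89 ± 0.14, edgeR adjusted p = 9.66e-06). Of the 49 neural adhesion, guidance and channel genes 6 were positive and 12 negative, among the latter St8sia2 (−2.52 ± 0.34), Nalcn (−2.53 ± 0.32) and Lrrn2 (−2.84 ± 0.26), each against its rise in WT cells. Sox1 differed the other way, with a higher effect in KO cells (2.05 ± 0.42, edgeR adjusted p = 0.00619). With the difference tested on the per-cell scale, 464 genes were positive and 254 negative, and those of Nanog and Slc38a4 were not called. The genotypes cannot be told apart from other differences between the 2 cell populations, such as a clone of origin, which the labels do not describe.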

How the data were processed

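Stranded poly(A) libraries were made from RNA of 200000 cells, with 2 µl of 100-fold diluted ERCC Mix 1 added to the extracted RNA, per the labels' protocols. The authors deposited raw read counts for 92 ERCC rows and 24421 gene rows. Trim Galore 0.4.0, featureCounts of Subread 1.5.0 and edgeR 3.32.1 with the build mm10 are named in the submitters' processing notes, while the sources used here do not give the aligner, the annotation or whether strand was used. The authors also deposited log2 values normalized to cell number, which were used only in an alternative test.

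From the counts, edgeR 4.0.16 (R 4.3.3) was fitted to all 12 libraries with 4 group means (quasi-likelihood, robust), after its default filter (minimum count 10, total 15). Relative scaling used TMM over genes, and per-cell scaling used the ERCC total times TMM over ERCC rows. P-values were adjusted over all 15281 genes with a threshold of 0.05. In simulated data (14635 genes) 50 well-counted genes were altered per fold change, and no library was made to stand apart. There 82% of genes raised 2-fold and 74% of those lowered 2-fold were recovered, and 100% and 94% at 4-fold. Of 185 calls 5.41% were false. The real libraries differ in these settings, so the shares need not hold for them. Intervals of count ratios cover counting error only.

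Whether libraries of the same number deviated together was checked. The correlation of deviations from the group means was 0.246, 0.127 and 0.154 in WT and 0.485, 0.169 and 0.369 in KO pairs. WT pairs of different numbers lay between −0.24 and 0.137, the highest being WT FBS 2 with WT paused 3. That value exceeded the 0.127 of a pair of the same number, so this check does not settle whether the numbers pair the libraries. Calls and p-values are from fits without the number, unless the block is named. A fit with the number as a block was an alternative. Others were RLE scaling, DESeq2 1.42.0, limma 3.58.1 on the log2 values, no filter, the 6 WT libraries alone and leaving out each library.

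The comparison, its gene lists and the families were chosen with earlier results of these data known. The rule for named genes took the 20 highest and lowest changes on each scale at 5 CPM or more, the 10 largest losses and gains, and per list up to 6 members of lowest p with those that moved against the rest. The text prints only some of these, and that selection, with genes outside the rule, was made after values were seen. Positions and promoter sequences are from GENCODE vM21 (24049 of 24421 rows matched by symbol) and RefSeq, both on GRCm38.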

Additional observations from a re-analysis of the deposited data

Results flagged for a closer look

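For 10 genes described above, the effect of pausing differed between KO and WT cells by the test described above, and the differences (log2, KO minus WT) were picked out for that reason. The value was 1.83 for Psat1, 1.87 for Sars, 0.92 for Slc38a4 and 1.26 for Scd1, all of which fell in WT cells. It was −1.34 for Nanog, −1.89 for Cited2, −2.52 for St8sia2, −2.53 for Nalcn and −2.84 for Lrrn2, all of which rose in WT cells, and 2.05 for Sox1, which also rose. All 10 kept their call without any 1 of the 12 libraries, with DESeq2 and with the replicate block. Genes named for a large WT change lean against that change by choice, so these values describe the 10 genes only.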

How the results depend on the processing

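The lower RNA content per cell kept its direction in all alternatives, with log2 values of −1.25 to −1.07 over the fits that left out 1 library and −1.16 with the replicate block, whose exact sign-flip p of 0.25 is the smallest that 3 pairs allow. Counts of genes higher and lower on the relative scale were 1387 and 1514 from the 6 WT libraries alone. There fewer genes were tested and the spread was estimated without the KO libraries. The counts ranged from 2005 to 4348 and from 2295 to 4895 when 1 library was left out. With the replicate block they were 3123 and 3270. Per cell, leaving out 1 library gave 113 to 250 genes higher and 7909 to 10573 lower. Differences between genotypes numbered 464 positive and 254 negative with ERCC scaling, and 858 to 3792 positive and 936 to 2708 negative when 1 library was left out. Of 190 named genes called on the relative scale, 11 lost the call in some alternative and none changed direction. With the 6 WT libraries alone 9 lost it (Eif2ak4, Klf4, Ldhb, Lefty1, Lefty2, Malat1, Mt1, Optn and Pdcd4), and with DESeq2 Aqp3 and Mt1 did. Among uncalled genes, Myc stood at −0.01 with RLE scaling and −0.01 without a filter, and at −0.42 to 0.34 over the fits that left out 1 library, the first without WT FBS 1. Pou5f1 stood at 0.01 with the replicate block and at −0.23 to 0.09 over the fits that left out 1 library, being above 0 without WT paused 1, WT FBS 2 or WT FBS 3. Besides the values given in the text, the block changed no other call of a named gene. Of 94 counts of lists and their parts, 76 moved by over 1.5 times with the 6 WT libraries alone, 68 without WT FBS 1, 32 to 54 without any other 1 of the libraries, 18 with the block and 9 with DESeq2. The cause of these shifts was not tested. Depth limits genes of few counts, as the interval of 30.7 to 6830 around the ratio of Nupr1 shows.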
